A study of Mus musculus with 6 samples.

Results

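Mitochondrial ribosomal proteins build the ribosome that works inside mitochondria. The genes described here were those measured by a probe whose only gene symbol in the platform annotation begins with Mrpl or Mrps and a digit. They were 65 genes on 67 probes, of 13840 genes that had a probe with 1 symbol, and comprised 42 genes with the large-subunit prefix (Mrpl) and 23 with the small-subunit prefix (Mrps). Where a gene had more than 1 probe, the probe with the highest mean log2 intensity over the samples represented it. Total RNA came from RAW 264.7 cells, a mouse macrophage-like line. It was taken 24 h after treatment with 40 μM 15(S)-HETE, a hydroxylated arachidonic acid product, together with 1 μg/mL lipopolysaccharide (LPS, a bacterial endotoxin that activates macrophages), or after 1 μg/mL LPS alone. There were 3 biological replicates of 15-HETE + LPS and 3 of LPS, each pooled from 6 wells of this 1 line, and both groups carried the LPS stimulus, so no unstimulated level is part of the comparison. Levels are the quantile-normalized intensities of single-channel arrays, compared between samples at the same probe only, and a positive log2 fold change means a higher level with 15-HETE.

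Mammalian mitochondria keep a small genome that codes for core subunits of the respiratory chain and the ATP synthase, and for the ribosomal RNAs and transfer RNAs needed to translate them. All proteins of the mitochondrial ribosome are instead coded in the nucleus, made on cytosolic ribosomes, imported, and assembled with the mitochondrial ribosomal RNA. The small subunit binds the messenger RNA and reads its codons, whereas the large subunit joins the amino acids and releases the chain through an exit tunnel close to the inner membrane. A portion of the proteins descends from the bacterial ancestor, and the remainder is specific to mitochondria. In macrophages LPS is known to shift energy production away from respiration and towards glycolysis.

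Promoters of nuclear genes for mitochondrial proteins often hold sites for ETS-family factors such as GABP, and for NRF1 and YY1. Promoters from RefSeq (GRCm38.p6; 250 bases before and 50 after the transcription start) were found for 57 of the 65 genes. Of these 57 promoters, 20 (35.1%) held the ETS core CCGGAAG on either strand, against 12.9% of 17492 protein-coding genes. The YY1 core AAGATGG was in 11 (19.3%, against 7.18%), and the NRF1 core CGCATGC in 8 (14%, against 4.96%). The cyclic AMP response element core TGACGTC (3 promoters, 5.26%, against 4.35%) and the E-box CACGTG (3 promoters, 5.26%, against 8.91%) were less frequent, and 23 promoters held none of the 5 motifs. None of these letter strings contains another, and a match describes sequence only. Large-subunit promoters held the ETS core in 13 of 37 cases and small-subunit promoters in 7 of 20.
Printed here are the promoters of the higher gene with the lowest p, Mrps2, and of the lower gene with the lowest p, Mrpl9, and of the 2 genes with an ETS core that were lowest in LPS replicate 1 relative to the other LPS replicates, Mrps12 and Mrpl34. Capitals mark motif matches: the NRF1 core in Mrpl9, where the matches on the plus and minus strands overlap, the YY1 core (read on the opposite strand) and then the ETS core in Mrps12, and the ETS core in Mrpl34. The promoter of Mrps2 held none of the 5.
Mrps2 (chr2:28467816-28468115, plus strand): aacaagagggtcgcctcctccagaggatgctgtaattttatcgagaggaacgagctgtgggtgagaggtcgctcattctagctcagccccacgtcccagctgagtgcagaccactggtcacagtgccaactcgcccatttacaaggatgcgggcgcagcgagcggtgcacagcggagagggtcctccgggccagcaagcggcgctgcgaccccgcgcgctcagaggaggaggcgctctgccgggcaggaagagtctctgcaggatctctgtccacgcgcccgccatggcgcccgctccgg
Mrpl9 (chr3:94443086-94443385, plus strand): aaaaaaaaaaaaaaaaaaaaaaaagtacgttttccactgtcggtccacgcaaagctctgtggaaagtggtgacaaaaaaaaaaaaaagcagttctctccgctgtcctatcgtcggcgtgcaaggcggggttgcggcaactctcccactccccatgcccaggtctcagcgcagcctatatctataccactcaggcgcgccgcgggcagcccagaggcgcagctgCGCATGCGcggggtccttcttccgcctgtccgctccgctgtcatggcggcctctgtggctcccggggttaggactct
Mrps12 (chr7:28741772-28742071, minus strand): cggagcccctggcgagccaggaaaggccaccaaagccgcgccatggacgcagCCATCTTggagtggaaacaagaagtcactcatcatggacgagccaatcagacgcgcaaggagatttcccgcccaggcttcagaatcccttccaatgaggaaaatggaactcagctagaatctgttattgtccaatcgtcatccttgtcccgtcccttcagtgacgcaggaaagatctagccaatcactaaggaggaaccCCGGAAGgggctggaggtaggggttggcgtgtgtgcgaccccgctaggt
Mrpl34 (chr8:71464676-71464975, plus strand): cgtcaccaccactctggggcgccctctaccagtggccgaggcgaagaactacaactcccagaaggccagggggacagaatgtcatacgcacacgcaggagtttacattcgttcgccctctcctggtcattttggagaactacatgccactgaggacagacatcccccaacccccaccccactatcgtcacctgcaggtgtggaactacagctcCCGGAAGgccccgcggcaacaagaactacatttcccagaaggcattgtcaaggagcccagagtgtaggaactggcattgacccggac

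A single sample set much of what these genes showed. In LPS replicate 1, 52 of the 65 genes (80.0%) had their lowest value of all 6 samples, against 20.0% of all 33012 probes and 23.5% of the probes above the median intensity of the array. The median gene had 56.3% of the geometric mean level of LPS replicates 2 and 3 there (log2 difference -0.83; -0.85 in the large subunit and -0.67 in the small subunit), and 46 genes were under 70%. Mrpl55, a protein specific to mitochondria, stood lowest at 37.3% and Mrpl45 highest at 153.8%. Mrpl45 had low and scattered intensities, with 1174, 346 and 1567 in 15-HETE + LPS cells, against 993, 771 and 541 in LPS cells. Summarized over the 65 probes, mean log2 intensity was 14.98, 14.95 and 14.97 in the 15-HETE + LPS samples, against 14.29, 14.95 and 15.04 in the LPS samples. LPS replicates 2 and 3 therefore lay at the level of the treated samples, and replicate 1 lay below all 5. Over all probes LPS replicate 1 correlated with LPS replicates 2 and 3 at 0.972 and 0.974 (Pearson's r across probes, which are not independent), and these correlated with each other at 0.979, so over the array as a whole the sample lay close to its group. Results are therefore given with and without it. Fewer cells that use these genes and less of their RNA per cell cannot be told apart in bulk samples, and the cause of the low values was not tested.

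**Figure D1:**
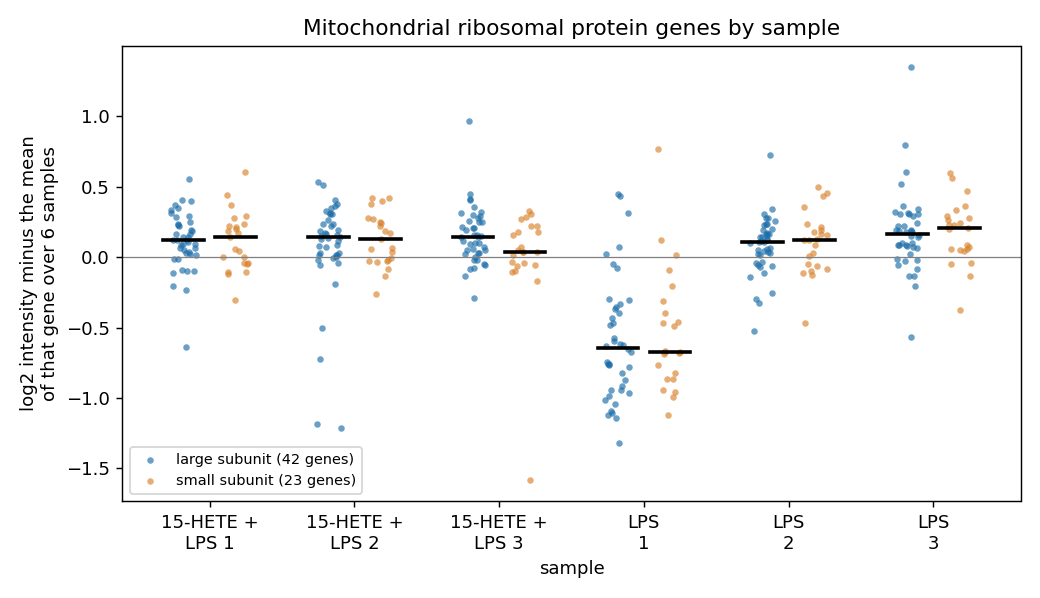
Each point is 1 gene in 1 sample, as log2 intensity minus the mean of that gene over the 6 samples (vertical axis), for the large (42 genes, blue) and small subunit (23 genes, orange); black bars are medians, and the 15-HETE + LPS samples stand left of the LPS samples (horizontal axis). The points of LPS replicate 1 lie below those of the other samples for most genes, with 52 of 65 at their lowest there.

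The spread within the groups differed accordingly. The SD of log2 intensity was larger in LPS than in 15-HETE + LPS for 57 of the 65 genes, with a median SD of 0.0756 in 15-HETE + LPS and 0.496 in LPS (n = 3 each). Levels in the treated replicates were close for most genes: 60 genes had an SD under 0.2 log2 units in 15-HETE + LPS, and 10 did in LPS. Over all probes above the array median intensity of 837 the corresponding median SDs were 0.147 and 0.241. Of the 65 genes, 61 were above that median, the others being Mrpl15, Mrpl21, Mrpl48 and Mrpl51.

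Whether 15-HETE altered the genes was asked first over both subunits. By limma with Benjamini-Hochberg adjustment over 33012 probes, 0 of the 65 genes passed an adjusted p of 0.05, where 0.951% of all probes passed (0.509% higher and 0.442% lower). At an unadjusted p under 0.05 there were 5 higher genes and 1 lower, against 8.62% and 11% of all probes and, since most members were bright, 11.7% and 15.9% of the 16506 probes above the array median. With a prior variance that follows intensity, Mrps2, Mrpl11 and Mrpl24 were called higher and Mrpl9 lower, which is 3 and 1 of 65 where 3.87% and 4.96% of all probes were called (8.84% in either direction), and 7.34% and 9.25% of those above the median. Both counts were near or below these shares. When the brighter probes alone were tested with the constant prior, Mrps2 was the 1 gene called (7.31% of those probes were called higher). The calls depended on single samples: leaving out any 1 treated sample or LPS replicate 2 left 0 of them under the trend, leaving out LPS replicate 3 gave Mrpl11 and Mrpl2 as higher (2.2% of all probes), and leaving out LPS replicate 1 kept all 4 and added others, described later. The median log2 fold change was 0.21 over the 65 genes and 0.01 over all probes, with 49 genes above 0 (75.4%, against 50.5% of all probes and 47.5% of those above the median). Leaving out LPS replicate 1 brought the median to -0.04 and the number above 0 to 30. In all, 19 genes turned from above to below 0 and 0 genes turned the other way. In 56 of the 65 genes LPS replicate 1 was below both other LPS replicates. Leaving out such a value can only lower the log2 fold change, so this direction followed from the choice of sample.

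Complete separation of the groups gave a similar account. The 3 values of 15-HETE + LPS lay above all 3 of LPS for 20 genes and below them for 3 (13.7% and 16.3% of all probes, 30% in either direction). Of the probes above the array median, 20.3% and 25.3% were separated in this way. In either direction the share was 35.4% of the 65 genes and 45.6% of those bright probes. For such a gene the exact two-sided permutation p is 0.1, the smallest that 3 against 3 samples allow. Without LPS replicate 1 the counts were 21 above and 22 below (19.8% and 21.5% of all probes, 28.2% and 32.1% of those above the median). In 16 genes all treated values lay between LPS replicate 1 and the other LPS replicates. No share over all probes was computed for this count, so it is a description only.

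**Figure D2:**
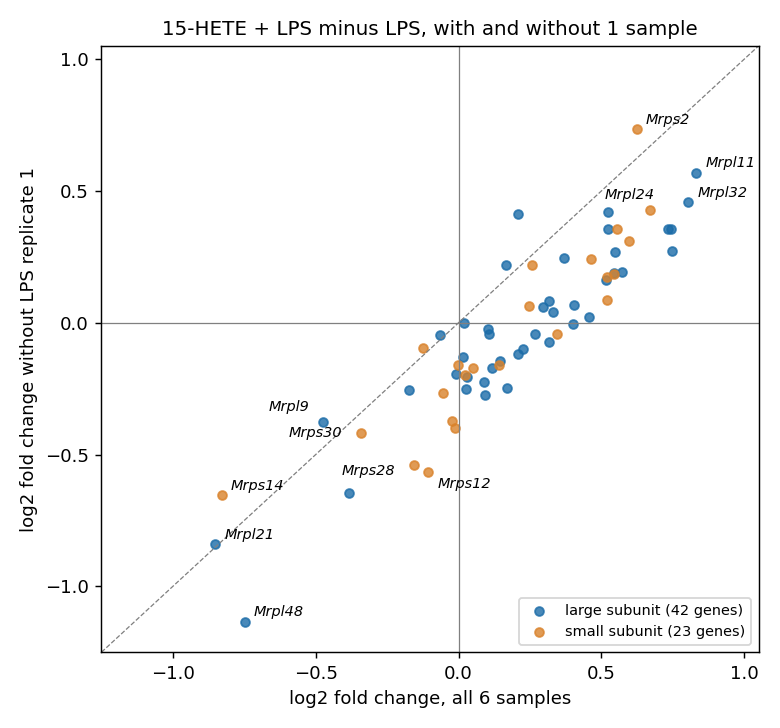
Log2 fold change (15-HETE + LPS minus LPS) of each of the 65 genes with all 6 samples (horizontal axis) and without LPS replicate 1 (vertical axis), for the large (blue) and small (orange) subunit; the dashed line marks equal values. Most points fall below the line, and the 19 points in the lower right quadrant are genes above 0 with all samples and below 0 without that replicate.

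Large and small subunit were then set side by side. The median log2 fold change was 0.22 in the large subunit, with 35 of 42 genes above 0, and 0.14 in the small subunit, with 14 of 23 above 0. Without LPS replicate 1 these medians were -0.02 (20 of 42 above 0) and -0.10 (10 of 23). Non-overlapping genes were 12 higher and 1 lower in the large subunit and 8 higher and 2 lower in the small one, beside the shares for all probes given before. Leaving out LPS replicate 1 gave 13 higher and 11 lower in the large subunit and 8 higher and 11 lower in the small one. The mean log2 intensity of the large-subunit probes minus that of the small-subunit probes was -0.13, -0.19 and 0.02 in the 15-HETE + LPS samples, against -0.18, -0.15 and -0.12 in the LPS samples, so the groups overlapped and no shift of one subunit relative to the other was resolved. LPS replicate 1, at -0.18, was inside that range, since both subunits were low in it. The order of the medians also turned when Mrps30, which structures place in the large subunit, was counted there and Mrps36, a component of the 2-oxoglutarate dehydrogenase complex, was left out (difference of large minus small medians -0.04, against 0.08 by symbol).

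Both classes of descent followed this course. The 37 proteins with a bacterial counterpart had a median log2 fold change of 0.29 (27 above 0), and the 28 proteins specific to mitochondria one of 0.19 (22 above 0). Without LPS replicate 1 the medians were 0.00 and -0.04. The level in LPS replicate 1 was 57.8% and 55.7% of the other LPS replicates in these 2 classes, so both classes had the low values. Promoters with an ETS core belonged to genes with a median log2 fold change of 0.29 (20 genes; 0.01 without LPS replicate 1), and those without one to genes with 0.17 (37 genes; -0.04 without LPS replicate 1).

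Among single genes Mrps2, the counterpart of bacterial S2 on the small subunit, had the lowest p. Its intensities were 9938, 11300 and 10755 in 15-HETE + LPS cells, against 8041, 6201 and 6614 in LPS cells. The groups did not overlap, and LPS replicate 1 was here the highest of its group. The fold change was 1.54 (log2 fold change 0.62, standard error 0.19, adjusted p = 0.150 by limma), with an adjusted p of 0.0320 under the intensity trend. Without LPS replicate 1 the log2 fold change was 0.73 and the trend-adjusted p 0.00178. As that sample held the highest LPS value of Mrps2, leaving it out could only raise the fold change. Leaving out any other single sample lost the call of Mrps2 under the trend. Its promoter, printed earlier, held none of the motifs searched.

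The proteins of the stalk, where translation factors bind, gave unlike values, although the difference between them was not tested. Mrpl11, at the stalk base, read 38577, 42109 and 36171 in 15-HETE + LPS cells, against 15157, 23751 and 28935 in LPS cells. All treated values were higher than all LPS values (log2 fold change 0.83, standard error 0.28, adjusted p = 0.179; trend-adjusted p = 0.0393), and the log2 fold change was 0.57 without LPS replicate 1. Mrpl10, which anchors the flexible part of the stalk, read 59395, 69598 and 65793 in 15-HETE + LPS cells, against 62263, 61460 and 68267 in LPS cells. Here the groups overlapped and the log2 fold change was 0.02 (95% interval -0.40 to 0.44). Mrpl12, its partner in the stalk, was not analysed here.

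Elsewhere on the large subunit, 4 further genes were among the 8 higher with the lowest p. Mrpl24, counterpart of a bacterial protein beside the tunnel exit, had 84781, 91898 and 83164 in 15-HETE + LPS cells, against 52198, 66742 and 62563 in LPS cells (log2 fold change 0.52, standard error 0.18, adjusted p = 0.196; trend-adjusted p = 0.0336). For Mrpl2, which lies near the peptidyl transferase centre, the values were 23285, 27831 and 25952 in 15-HETE + LPS cells, against 14138, 17937 and 22350 in LPS cells. Mrpl14, at the subunit interface, gave 103280, 100177 and 105512 in 15-HETE + LPS cells, against 36644, 82560 and 78339 in LPS cells. In these 3 genes the groups did not overlap, and LPS replicate 1 was the lowest sample. Mrpl32, which is cut to its mature form by the m-AAA protease before assembly, had 25239, 26260 and 26989 in 15-HETE + LPS cells, against 9272, 20095 and 18036 in LPS cells, a log2 fold change of 0.80 with all samples and 0.46 without LPS replicate 1. The log2 fold changes of Mrpl24, Mrpl2 and Mrpl14 were 0.52, 0.52 and 0.73 with all samples and 0.42, 0.36 and 0.36 without it. In all 4 genes every treated value exceeded every LPS value, so leaving out a sample could not change the sign.

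On the small subunit, Mrps5, counterpart of a bacterial protein at the messenger RNA entrance, showed 11413, 11824 and 10293 in 15-HETE + LPS cells, against 5013, 8551 and 8060 in LPS cells. Mrps26, specific to mitochondria, showed 28716, 33708 and 29419 in 15-HETE + LPS cells, against 15852, 23281 and 24442 in LPS cells. Both genes had higher values in all treated samples, with log2 fold changes of 0.67 and 0.55 (adjusted p = 0.227 and 0.261 by limma). The values did not pass the threshold, and were 0.43 and 0.36 without LPS replicate 1.

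Of the lower genes, Mrpl9, counterpart of bacterial L9, was the clearest. It read 64261, 66290 and 62060 in 15-HETE + LPS cells, against 102358, 82435 and 84343 in LPS cells (log2 fold change -0.48, standard error 0.18, adjusted p = 0.221; trend-adjusted p = 0.0423). Its groups did not overlap, LPS replicate 1 was the highest sample, and the log2 fold change was -0.38 without it (trend-adjusted p = 0.00245). Mrps30, which despite its symbol is a large-subunit protein, had 88658, 107440 and 97342 in 15-HETE + LPS cells, against 110891, 122393 and 138687 in LPS cells, again without overlap (log2 fold change -0.34, standard error 0.19, adjusted p = 0.374; -0.42 without LPS replicate 1). Mrps9, counterpart of bacterial S9, had 29616, 31904 and 30728 in 15-HETE + LPS cells, against 34863, 32262 and 33484 in LPS cells. Its lowest LPS value exceeded its highest treated value by little, and the log2 fold change was -0.13 (adjusted p = 0.712; -0.10 without LPS replicate 1). Mrpl1, of the L1 arm at which spent transfer RNA leaves, had 52509, 60155 and 58273 in 15-HETE + LPS cells, against 57339, 66634 and 69234 in LPS cells, with overlap between the groups (log2 fold change -0.17; -0.26 without LPS replicate 1).

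The other lower genes were dim or scattered. Mrpl21, Mrpl48 and Mrpl51 were not above the array median, and Mrps14, counterpart of bacterial S14, was scattered among the treated replicates. Mrps14 intensities were 1793, 987 and 394 in 15-HETE + LPS cells, against 2011, 1114 and 1744 in LPS cells, and those of Mrpl48, a protein of the central protuberance, were 410, 163 and 352 in 15-HETE + LPS cells, against 282, 614 and 647 in LPS cells. Mrpl21 intensities were 370, 406 and 526 in 15-HETE + LPS cells, against 785, 401 and 1472 in LPS cells. Groups overlapped for Mrps14 and Mrpl21, and for Mrpl48 as well, and the log2 fold changes of -0.83, -0.75 and -0.85 had adjusted p values of 0.470, 0.438 and 0.384 (-0.65, -1.13 and -0.84 without LPS replicate 1). For Mrpl51 the values were 446, 289 and 568 in 15-HETE + LPS cells, against 380, 591 and 726 in LPS cells, also with overlap (log2 fold change -0.38; -0.65 without LPS replicate 1).

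In the brightest probes of each subunit other than Mrps30, LPS replicate 1 was again the lowest sample. Mrpl52, specific to mitochondria, had 508021, 472673 and 448075 in 15-HETE + LPS cells, against 256223, 498631 and 481403 in LPS cells. Its log2 fold change without LPS replicate 1 was -0.04, against 0.27 with it. Mrpl13 and Mrpl17, counterparts of bacterial L13 and L17, had log2 fold changes of 0.29 and 0.32 with all samples and 0.06 and 0.08 without that replicate. Mrpl13 shows the pattern plainly, with 188039, 190258 and 188216 in 15-HETE + LPS cells, against 111331, 174557 and 188039 in LPS cells. Mrpl33 had 0.54 and 0.19, and Mrpl35 0.03 and -0.25, on the same log2 scale. In the small subunit, Mrps7, a protein of the head where messenger RNA exits, had 78970, 83789 and 84684 in 15-HETE + LPS cells, against 59552, 95006 and 94385 in LPS cells. Its log2 fold change was 0.02 with all samples and -0.20 without LPS replicate 1. Mrps18b, Mrps33 and Mrps36 likewise had values between -0.05 and 0.14 with all samples and between -0.27 and -0.16 without that replicate. Only 2 genes had a second probe. At Mrps33 the dimmer probe gave 0.93, against 0.14 at the brighter one, and at Mrpl49 the dimmer gave -0.20, against 0.15. None of these 4 probes passed an unadjusted p of 0.05.

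**Figure D3:**
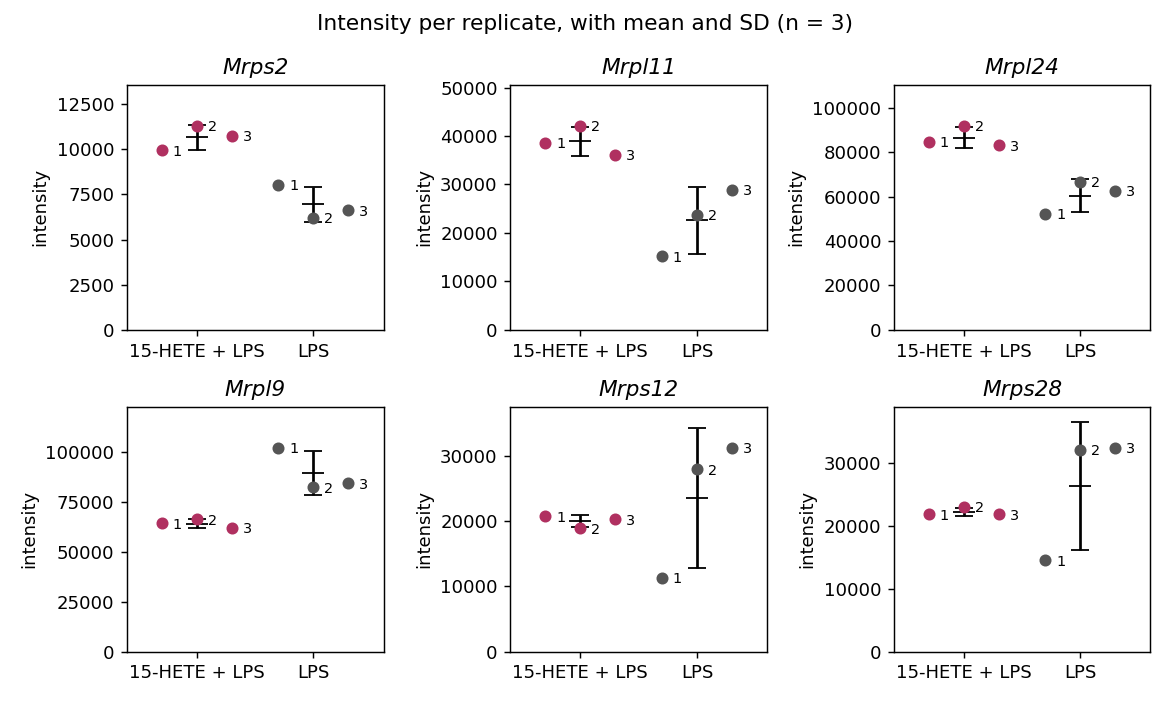
Intensity (vertical axes, from 0) of 6 genes in the 3 replicates of 15-HETE + LPS (red, left) and of LPS (grey, right), with replicate numbers, group mean and SD (n = 3). In Mrps2, Mrpl11, Mrpl24 and Mrpl9 the groups do not overlap, whereas in Mrps12 and Mrps28 the treated values lie between LPS replicate 1 and LPS replicates 2 and 3.

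Leaving out LPS replicate 1 also brought genes forward that the complete comparison did not show. By limma with the constant prior 0 probes of the whole array were called among the remaining 5 samples, and at an unadjusted p under 0.05 there were 7 higher and 5 lower genes (9.65% and 10.5% of all probes, 15% and 15.7% of those above the median). With the intensity trend, 10 genes were higher (Mrpl11, Mrpl14, Mrpl24, Mrpl32, Mrpl42, Mrpl43, Mrps2, Mrps5, Mrps26 and Mrps35) and 12 lower (Mrpl1, Mrpl9, Mrpl23, Mrpl35, Mrpl46, Mrpl54, Mrps12, Mrps15, Mrps24, Mrps28, Mrps30 and Mrps36), of 65, where 7.86% and 7.69% of all probes and 15.4% and 15% of those above the array median were called. The calls were thus close in number to what bright probes gave. The large subunit held 6 of the higher and 6 of the lower genes, and the small subunit 4 and 6. Mrps12 and Mrps28, chosen after their values were seen, illustrate the lower ones. Mrps12, a protein of the decoding centre, had 20787, 18938 and 20289 in 15-HETE + LPS cells, against 11357, 27993 and 31303 in LPS cells. Its log2 fold change was -0.11 with all samples and -0.57 without LPS replicate 1 (trend-adjusted p = 0.00157). Mrps28 had 21811, 23018 and 21858 in 15-HETE + LPS cells, against 14554, 32078 and 32456 in LPS cells, with -0.16 and -0.54 (trend-adjusted p = 0.000884). Both had treated values below LPS replicates 2 and 3 and above LPS replicate 1. These calls rest on 2 LPS samples, and the spread of LPS replicate 1 has no part in them.

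Factors of mitochondrial translation, ribosome assembly and mitochondrial transcription were measured on the same arrays and, by the median of each list, were not low in LPS replicate 1. No gene of the lists named next passed the adjusted p of 0.05 by limma. Of 15 translation factors and regulators, 11 were measured, with a median log2 fold change of -0.12. Their median difference of LPS replicate 1 from the other LPS replicates was 0.19, opposite in sign to that of the ribosomal proteins. Taco1, an activator of cytochrome oxidase subunit I translation, had 3272, 3478 and 3329 in 15-HETE + LPS cells, against 1466, 1645 and 1663 in LPS cells (log2 fold change 1.08, standard error 0.17, adjusted p = 0.0521; trend-adjusted p = 0.0137). Lrpprc, which stabilizes mitochondrial messenger RNA, had 15413, 15488 and 17065 in 15-HETE + LPS cells, against 33630, 26930 and 28653 in LPS cells (log2 fold change -0.89, standard error 0.18, adjusted p = 0.0776; trend-adjusted p = 0.00391). In both genes the groups did not overlap, and without LPS replicate 1 the log2 fold changes were 1.02 and -0.80. Letm1, an inner-membrane ion exchange protein, and Tufm, the elongation factor that delivers transfer RNA, were lower as well, with log2 fold changes of -0.63 and -0.50 (trend-adjusted p = 0.00707 and 0.0414; -0.61 and -0.39 without LPS replicate 1). With the trend, and likewise at an unadjusted p under 0.05, 1 of 11 was higher and 3 were lower. Under the trend 3.87% and 4.96% of all probes were called, and 7.34% and 9.25% of those above the array median. Such an unadjusted p was found for 8.62% and 11% of all probes, and 11.7% and 15.9% of those above the median.

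For assembly and ribosomal RNA modification 19 of 29 listed genes were measured, with a median log2 fold change of -0.02 (0.04 without LPS replicate 1) and 0 higher and 2 lower at an unadjusted p under 0.05 (8.62% and 11% of all probes). Nsun4 (-0.67, trend-adjusted p = 0.0345), a methyltransferase of the small-subunit RNA, and Mrm1 (-0.67, trend-adjusted p = 0.0478), one of the large-subunit RNA, were lower under the trend, and Rbfa, a small-subunit assembly factor, had a log2 fold change of 0.43. Without LPS replicate 1 these 3 values were -0.68, -0.51 and 0.31. Of 20 symbols listed for regulators of mitochondrial transcription and biogenesis, 16 were measured (median 0.01 and, without LPS replicate 1, 0.03). At an unadjusted p under 0.05, 1 was higher and 3 were lower, beside the same shares. Under the trend 1 was higher, the nuclear receptor Esrra (0.54, trend-adjusted p = 0.0190). The 1 lower was Nrf1 (-0.67, trend-adjusted p = 0.0315), the factor whose core motif was searched above. Ppargc1a, a coactivator of both, had -0.50 without a call, and the 3 values were 0.50, -0.59 and -0.46 without LPS replicate 1. Median differences of LPS replicate 1 from the other LPS replicates were 0.15 and 0.27 in these lists. Of 8 symbols listed for ribosomal components or associated proteins outside the symbol rule, 5 were measured. Their log2 fold changes ran from -0.28 (Oxa1l) to 0.66 (median 0.30, and -0.08 without LPS replicate 1). The highest was Ptcd3, a small-subunit protein, with 7017, 6282 and 6826 in 15-HETE + LPS cells, against 5330, 3767 and 3795 in LPS cells. Dap3, also of the small subunit, had -0.24 (-0.34 without LPS replicate 1) and Gadd45gip1, of the large subunit, 0.38 (-0.01 without it). By the median these genes were low in LPS replicate 1 (log2 difference of -0.31 from the other LPS replicates), but it was the lowest sample for only 2 of 5. The differences were -1.17 in Gadd45gip1, -1.14 in Chchd1 and -0.31 in Dap3, against 0.50 in Ptcd3 and 0.25 in Oxa1l.

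The low values of LPS replicate 1 recurred in 2 abundant gene groups. Among 60 nuclear-coded subunits of oxidative phosphorylation, LPS replicate 1 was the lowest sample for 48 (80.0%), at a median of 50.1% of the other LPS replicates. Among 61 cytosolic ribosomal proteins it was lowest for 45 (73.8%), at 71.8%. Median log2 fold changes were 0.32 and 0.19 with all samples and 0.01 and 0.03 without that replicate, which is the course the mitochondrial ribosomal proteins followed. The genes with the lowest p were Atp5c1, the gamma subunit of ATP synthase (0.77, trend-adjusted p = 0.0133, the only call of its group under the trend), with Cox8b (1.36) and Cox6b1 (0.87), and Rps14 (0.57), Rpl27a (0.48) and Rps29 (0.46) of the cytosolic ribosome. The same values without LPS replicate 1 were 0.63 for Atp5c1, 1.36 for Cox8b, whose probe was dim (177 to 1086), 0.48 for Cox6b1, 0.39 for Rps14, 0.32 for Rpl27a and 0.27 for Rps29.

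**Figure D4:**
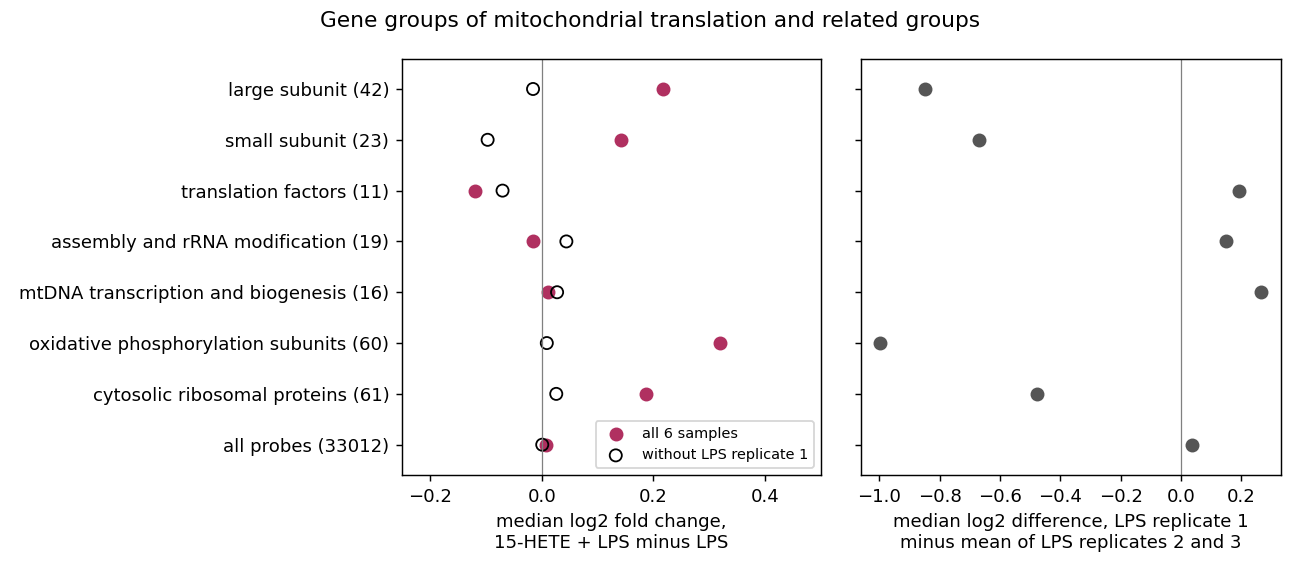
Left, median log2 fold change (15-HETE + LPS minus LPS) of each gene group with all 6 samples (red) and without LPS replicate 1 (open circles); right, median log2 difference of LPS replicate 1 from the mean of LPS replicates 2 and 3. Group sizes are in parentheses. Both subunits, oxidative phosphorylation and cytosolic ribosomal proteins lie below 0 at right (-0.85, -0.67, -0.997 and -0.48), and translation factors, assembly and transcription genes above 0.

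Markers of the cell type were not low in LPS replicate 1. All 6 of the 10 listed macrophage markers that were measured, Spi1, Lyz2, Adgre1, Cd14, Ptprc and Itgam, exceeded the array median in all 6 samples. None was lowest in LPS replicate 1, and their summed intensity spanned 3221890 to 3417310 in 15-HETE + LPS and 2258510 to 3033240 in LPS. Summed fibroblast markers (6 of 6 measured) spanned 13121 to 15431 in 15-HETE + LPS and 22049 to 27747 in LPS. Their log2 fold changes ran from -1.30 (Dcn) to 0.48. Dcn was the 1 of 6 called lower under the trend, where 4.96% of all probes were. Summed granulocyte and erythroid markers (4 of 6) spanned 1904 to 4356 in 15-HETE + LPS and 4371 to 5742 in LPS. Their log2 fold changes ran from -1.38 (Mpo) to 0.10. Of these 4 markers, 1 was also called lower under the trend. Lymphocyte markers (4 of 6) spanned 2126 to 5412 in 15-HETE + LPS and 2365 to 3487 in LPS. Their part in the values of the mitochondrial ribosomal proteins was not tested.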

How the data were processed

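RNA from LPS-stimulated RAW 264.7 cells was hybridized to ABI mouse genome survey arrays, 3 with and 3 without 15-HETE. Titles of the treated samples carry a code (DWW) that those of the LPS samples lack, and its meaning is not given. The labels do not say whether the groups were handled together. A difference in handling between them could not be told apart from the treatment. The deposited values are linear intensities that the authors quantile normalized after chemiluminescent imaging and primary analysis in the scanner's own software. The methods then filter on S/N and flag; neither column was used here, so all probes were tested. Labels and paper differ on the serum content of the medium. Arrays have no read depth, and their number limits the precision. The genome build of the probes is not given in the sources used here.

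After log2 transformation, limma 3.58.1 (R 4.3.3; lmFit, eBayes, two-sided) was fitted to all 33012 probes with Benjamini-Hochberg adjustment, calls being made at an adjusted p under 0.05. No p was computed over groups of genes. RefSeq (GRCm38.p6) matched all 65 genes by gene id, and 13 of the 78 protein-coding Mrpl and Mrps genes it lists were not analysed here. Cytosolic ribosomal proteins were taken by symbol, without Rps6k kinases, pseudogenes and Rps19bp1. Named genes were the 8 higher and 8 lower with the lowest p, the 5 brightest of either subunit, stalk proteins, genes whose place differs from their symbol, and in other lists the 3 with the lowest p and those called under the trend. The members and lists were chosen with earlier results of these data known. The fit was tested on simulated data. Alternatives comprised an intensity trend, the methods' t-test and thresholds, cyclic loess, 75th percentile scaling, an offset, a filter on dim probes, other probe and subunit rules, a replicate block, and the omission of single samples.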

Additional observations from a re-analysis of the deposited data

How the results depend on the processing

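Under the intensity trend, 3 genes were called higher and 1 lower. Restricting the test to probes above median intensity called 1 higher (Mrps2) and gave a difference of large minus small subunit medians of 0.140. The methods' t-test, the study's thresholds, cyclic loess, 75th percentile scaling, the offset of 50 and both probe rules called 0 of the 65. With the constant prior, leaving out any sample also called 0 of them. For the t-test over all probes, the study's thresholds and these left-out fits, 0 probes of the whole array were called. Their 0 therefore says nothing particular to the 65. The study's thresholds were applied here to the limma fit and not to the paper's t-test. The paper tested only probes past its fold rule, and reports transcripts both induced and repressed by 15-HETE. The t-test over probes past the fold rule called 50 probes of the array higher and 38 lower, and cyclic loess 199 and 117. A fit with the replicate number as a block (replicate block) called 0 genes and 0 probes. Same-numbered samples correlated at -0.024, 0.0035 and 0.0237 in their deviations, within the range of other-numbered pairs (-0.0538 to 0.0464). Whether same-numbered samples shared a day or handling was not tested. Over left-out samples, with or without the trend, 0 to 10 genes were higher and 0 to 12 lower. The 10 and 12 came without LPS replicate 1, 2 higher came without LPS replicate 3, and the others gave 0. Over left-out samples the large-subunit median spanned -0.0155 to 0.402, the small-subunit median -0.0968 to 0.297, both lowest without LPS replicate 1, and their difference 0.0418 to 0.173. That difference was -0.0296 with the mean over the probes of a gene and -0.0387 with subunits by structure. For the 26 named genes 335 values were compared, which exclude the t-tests, the study's thresholds and the trend fits with a left-out sample. Of these values, 320 kept sign and call, 5 gained a call and 10 changed sign, the last all by a left-out sample. More named genes were called with the trend and without LPS replicate 1, as listed in the Results. Log2 fold changes over left-out samples spanned -0.0428 to 0.438 for Mrpl52, -0.252 to 0.186 for Mrpl35, -0.172 to 0.162 for Mrps18b, -0.159 to 0.316 for Mrps33, -0.200 to 0.137 for Mrps7 and -0.266 to 0.0549 for Mrps36, with the lowest value of each without LPS replicate 1, and -0.0323 to 0.0821 for Mrpl10, lowest without 15-HETE + LPS replicate 2. The cause was not tested. With 3 arrays a group and 1 discordant LPS replicate, small changes of these genes could not be resolved, and no S/N value was used to judge the 4 dim genes.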
